A study of Mus musculus with 696 samples.

Results

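Tail epidermal cells sorted 1 week after a second wound were compared with cells of unwounded tail skin. The members were taken from the sample labels, and comprised the 177 cells of the 9w time point (1w pw2, plates C76 and C77) and the 179 cells of the 0w time point (plates C60 and C61). Together they made up 356 of the 696 cells and 4 of the 8 plates of the single-cell experiment. All mice, controls included, were females of mixed CBA C57BL/6 strain that carried Lrig1-EGFP-ires-CreERT2 and Rosa26-fl/STOP/fl-tdTomato and had been given hydroxytamoxifen once on the tail at 6 to 8 weeks of age. The 0w mice were taken 1 week after labelling without a wound. The 1w pw2 mice had received a full-thickness punch wound of the tail at 0w and an overlapping one 8 weeks later, so they were also 9 weeks further from labelling than the 0w mice, and that interval cannot be told apart from the wounds. The tdTomato label marks any cell in which the Lrig1 promoter drove Cre at the time of labelling, and all its descendants wherever they moved. Cells were taken from a zone holding both the wound bed and distal hair follicles, so values from those places are mixed. The labels name plates but not animals, and each time point carries its own replicate letter in the titles, so the p-values below measure the spread between plates only.

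Lrig1 is a transmembrane regulator of growth factor receptors, and in skin it is used as a marker of a stem cell pool of the upper hair follicle. Follicle cells can enter the interfollicular epidermis after injury and take part in its repair. Keratinocytes of a wound edge are known to switch on the stress keratins (Krt6a, Krt6b, Krt16), small protease inhibitors of the stefin and serpin families, small proline-rich proteins of the cornified envelope, and secreted defence proteins. In mouse tail the interfollicular epidermis is divided into scales and interscales, which differ in the keratins of their suprabasal layers.

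Plate totals were 16631497 and 18652318 counts at 0w and 12950125 and 18288475 at 1w pw2, with a median of 129319 to 131604 counts a cell at 0w and 122416 to 141063 at 1w pw2. Keratinocyte markers fitted the label on the 4 plates, with Krt14 detected in 80.2% to 93.4% of cells. Mitochondrial transcripts moved with the comparison. Their median share per cell was 22.7% and 30.7% on the 0w plates and 14.3% and 13.0% on the 1w pw2 plates. Lrig1 itself stood at 36.7 and 24.3 CPM (a gene's count over its plate's scaled total, per 1e6) at 0w and 35.1 and 31.1 CPM at 1w pw2, and the groups overlapped (log2 fold change 0.12 ± 0.55 SE, 2 plates a group, edgeR adjusted p = 0.959).

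Counts were summed over the cells of each plate and fitted with edgeR on all 8 plates. Calls required a fold change above 2 together with a Benjamini-Hochberg adjusted p under 0.05. Of 13853 genes tested, 37 were called (0.267%). Of these, 33 were higher at 1w pw2 (0.238% of genes tested) and 4 were lower (0.0289%). The raised genes included 3 of the wound keratins, 3 stefins, 5 clade B serpins and 3 small proline-rich proteins, with others of varied roles given below, and the 4 lowered genes were Abi3bp, Ackr4, Wif1 and Prelp. The count rested on few plates. Leaving out 0w replicate 1 gave 4 calls and leaving out 0w replicate 2 gave 1. Dropping 1w pw1 replicate 1 from the shared fit gave 9, dropping 1w pw1 replicate 2 gave 23, and 16 were left once 1w pw2 replicate 2 was dropped. With the mitochondrial genes removed 36 were called, all of them among the 37. With the stricter filter on cells (2000 or more genes and no more than 25% mitochondrial reads) 11 were called, all higher. Of these, 10 were among the 37. Fewer were also called with only the plates compared in the fit (12) and with every cell scaled to the same total (25). Other alternatives gave more calls, among them 96 with the replicate number as a block and up to 693 with DESeq2. A gene called here may therefore be lost, and a gene that missed the call may pass, under another fit. The 37 genes kept their direction under each of the 19 processing alternatives tried, and 2610528A11Rik was called under each of them.

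**Figure D1:**
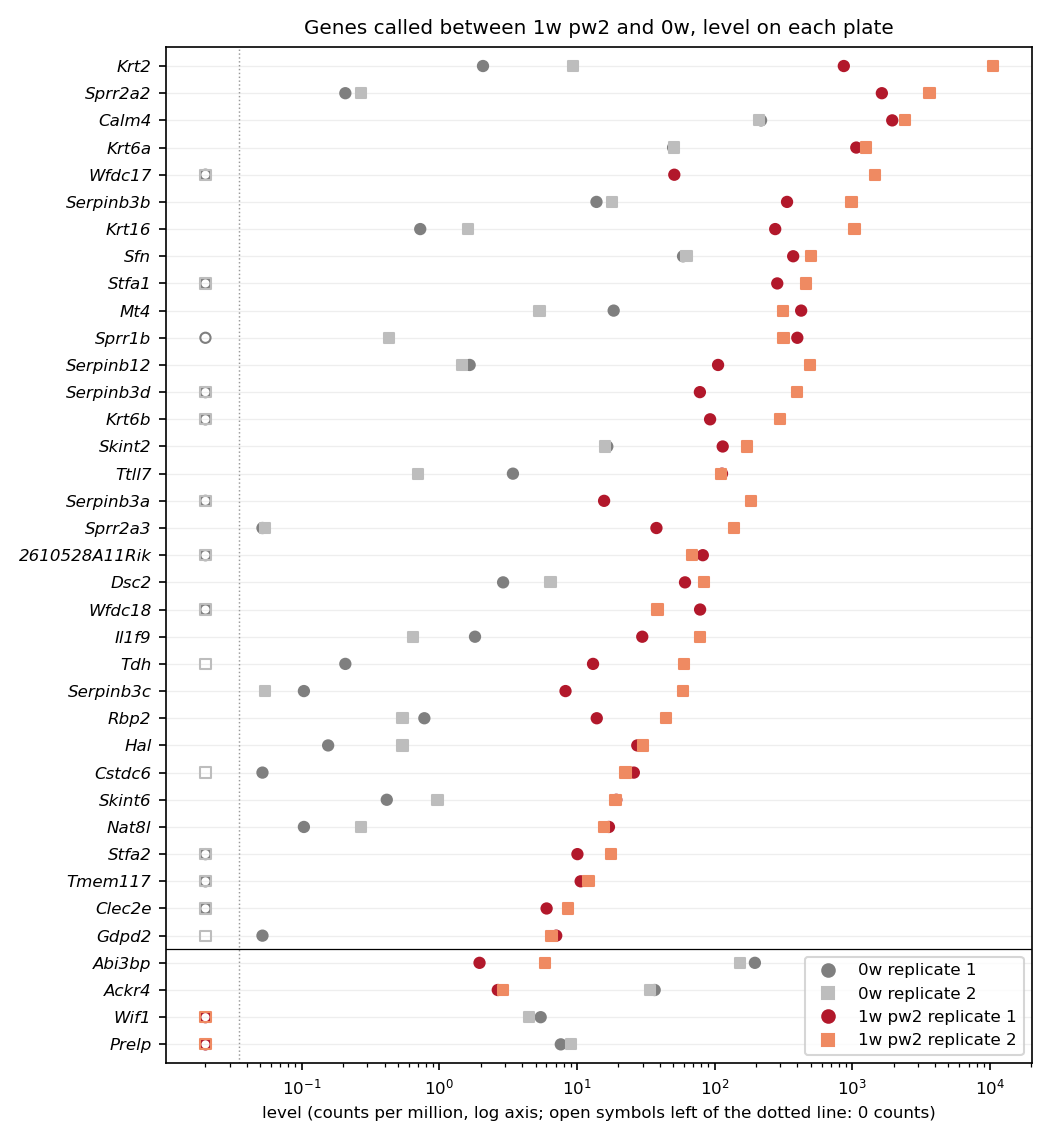
Level of the 37 called genes on each of the 0w and 1w pw2 plates, in CPM on a log axis, with a symbol per plate, raised genes above the horizontal line and lowered genes below it. Open symbols left of the dotted line mark plates with 0 counts, as for Krt6b at 0w and Wif1 at 1w pw2.

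**Figure D2:**
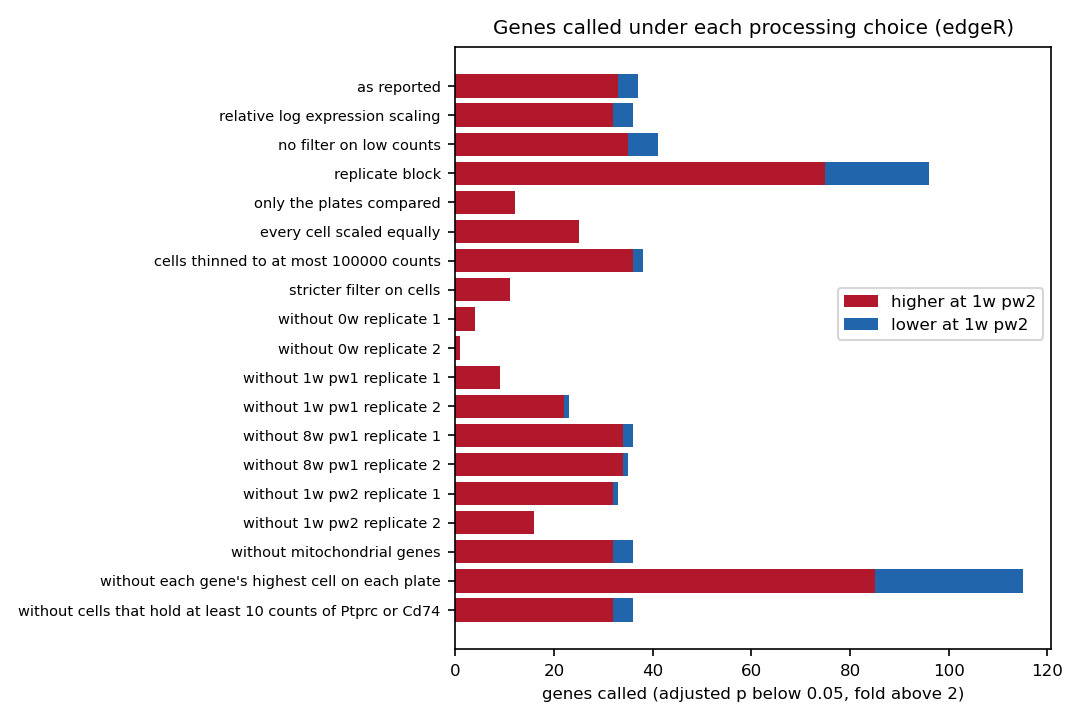
Number of genes called between 1w pw2 and 0w under the reported processing and each of the 19 alternatives except DESeq2. The reported fit gave 37. The alternatives drawn gave fewest calls without 0w replicate 2 and most, 115, without each gene's highest cell on each plate. DESeq2, with 693 calls, is not drawn.

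Of the 4 wound keratins tested 3 were called, all higher (0.238% of all genes tested were called higher). These are intermediate filament proteins that activated keratinocytes form beside or in place of the resting set. Krt6b (chr15:101676023-101680287, GRCm38, minus strand) had 0 counts on both 0w plates and 92.7 and 299 CPM on the 1w pw2 plates, so it was at least 2636-fold higher, taking 3 counts over both 0w plates as the floor (edgeR adjusted p = 0.00651), or at least 1169-fold by replicate 1 of 1w pw2 alone. It was called under 18 of 19 alternatives, and missed only without 0w replicate 2 (adjusted p = 0.0605). Its neighbour Krt6a (chr15:101689910-101694307) was present before wounding, at 49.9 and 50.7 CPM, and reached 1070 and 1259 CPM (log2 fold change 4.53 ± 0.50 SE, edgeR adjusted p = 0.0121). Krt16, on chromosome 11, stood at 0.727 and 1.62 CPM at 0w and at 276 and 1037 CPM at 1w pw2 (9.12 ± 0.89 SE on the log2 scale, adjusted p = 0.00651). For each of these genes both 1w pw2 plates lay above both 0w plates. The last wound keratin, Krt17, which resting follicles also make, measured 962 and 358 CPM at 0w and 3214 and 1978 CPM at 1w pw2 and missed the call (adjusted p = 0.187). Part of these reads cannot be placed with certainty. Of the 75-base windows of the annotated transcripts, 39.6% of those of Krt6b, 38.6% of those of Krt6a and 28.9% of those of Krt16 also occur in a transcript of another gene. The floor of 3 counts, here and below, is in amplified reads without molecular identifiers, so such bounds hold for the reads counted and not for molecules. Cells with Krt6b at 1w pw2 held a median of 9.5 and 102 counts, so 1 missed cell at 0w could exceed the floor.

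The stefins, small cytosolic inhibitors of cysteine proteases such as cathepsins, were another group. Of 13 stefin A family members listed, 10 were in the table and 9 were tested, and 3 were called, all higher, while 8 had an unadjusted p under 0.05 in that direction (6.82% of all genes tested did). Stfa1 (chr16:36276951-36285373) had 0 counts at 0w and 285 and 464 CPM at 1w pw2, at least 4866-fold higher (edgeR adjusted p = 0.0273). Stfa2, on the same chromosome, had 0 counts at 0w and 10.1 and 17.6 CPM at 1w pw2, at least 181-fold higher (adjusted p = 0.0123). Cstdc6 had 1 count over both 0w plates, and 25.9 and 22.6 CPM at 1w pw2. Its ratio was 908, with an exact 95% counting interval of 162 to 35890 that covers counting error only (adjusted p = 0.0133). Such intervals, here and below, treat amplified reads as independent counts, so they leave out the spread between cells and between plates. Cstdc5 measured 10.4 and 0.108 CPM at 0w and 2661 and 2566 CPM at 1w pw2 and missed the call (adjusted p = 0.0805). With each gene's highest cell on each plate removed, an alternative chosen after the data were seen, Cstdc5 was called (adjusted p = 0.0326).

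The clade B serpins, are a family of intracellular protease inhibitors. Of 18 listed, 16 were tested and 5 were called, all higher (0.238% of all genes tested were called higher). Both 1w pw2 plates lay above both 0w plates for 11 of the 16 and below for 2, against 21.5% and 19.4% of all genes tested. Serpinb3a, Serpinb3b, Serpinb3c and Serpinb3d lie together on chromosome 1, as does Serpinb12 (chr1:106934449-106957080). Serpinb3d (chr1:107078167-107083506) had 0 counts at 0w and 78.2 and 396 CPM at 1w pw2, at least 3248-fold higher, or 985-fold by replicate 1 alone (edgeR adjusted p = 0.0251). Serpinb3a (chr1:107045587-107052303) also had 0 counts at 0w, and 15.7 and 185 CPM at 1w pw2, at least 1402-fold higher, or 198-fold by replicate 1 alone and 2330-fold by replicate 2 alone (adjusted p = 0.0433). For both genes replicate 2 of 1w pw2 stood well above replicate 1. Serpinb3c had 3 counts over both 0w plates, and 8.26 and 58.9 CPM at 1w pw2, a ratio of 464 with a counting interval of 158 to 2254, or of 104 by replicate 1 alone (adjusted p = 0.0309). Serpinb3b was the member already present at 0w, at 13.9 and 18.0 CPM, and stood at 336 and 988 CPM at 1w pw2 (log2 fold change 5.38 ± 0.76 SE, adjusted p = 0.0273). Serpinb12 went from 1.66 and 1.46 CPM to 106 and 493 CPM (7.58 ± 1.10 SE, adjusted p = 0.0309). Other members did not pass the test, among them Serpinb5 at 777 and 1124 CPM against 2006 and 3420 CPM (adjusted p = 0.266). Serpinb11 went the other way, at 110 and 49.5 CPM against 22.6 and 33.5 CPM (adjusted p = 0.384), as did Serpinb6a, at 144 and 132 CPM against 84.1 and 103 CPM (adjusted p = 0.681). Of the 75-base windows of these 5 genes, a share of 0% for Serpinb12 to 8.09% for Serpinb3a occurs in another gene.

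All 4 Serpinb3 genes were called higher, and their promoter sequences are shown for that reason, with a pair of raised genes that hold a binding motif of the transcription factor AP-1. RefSeq promoter sequences of the build GRCm38.p6 matched 26 of the 33 raised genes and 3 of the 4 lowered genes by symbol. Each run holds the 250 bases before the transcription start, 5′ to 3′ on the gene's strand, and capitals mark TATAAA or TGANTCA read on either strand. No occurrence of one motif overlapped the other in the runs shown.
Serpinb3a (chr1:107052304-107052553, minus strand): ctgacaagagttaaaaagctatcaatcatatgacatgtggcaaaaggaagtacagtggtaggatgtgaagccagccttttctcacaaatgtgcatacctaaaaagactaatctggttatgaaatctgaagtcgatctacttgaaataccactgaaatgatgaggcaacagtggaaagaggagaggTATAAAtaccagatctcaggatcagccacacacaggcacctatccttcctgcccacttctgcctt
Serpinb3b (chr1:107161115-107161364, minus strand): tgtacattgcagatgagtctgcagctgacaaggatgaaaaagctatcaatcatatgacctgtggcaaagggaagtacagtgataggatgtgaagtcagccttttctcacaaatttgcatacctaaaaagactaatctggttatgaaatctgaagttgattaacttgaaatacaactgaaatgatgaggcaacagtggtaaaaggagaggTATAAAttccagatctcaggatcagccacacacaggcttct
Serpinb3c (chr1:107278372-107278621, minus strand): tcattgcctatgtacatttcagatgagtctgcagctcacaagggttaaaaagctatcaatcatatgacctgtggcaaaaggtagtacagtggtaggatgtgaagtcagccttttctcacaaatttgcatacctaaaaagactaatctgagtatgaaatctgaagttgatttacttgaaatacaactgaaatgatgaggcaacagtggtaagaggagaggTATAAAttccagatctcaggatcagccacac
Serpinb3d (chr1:107083481-107083730, minus strand): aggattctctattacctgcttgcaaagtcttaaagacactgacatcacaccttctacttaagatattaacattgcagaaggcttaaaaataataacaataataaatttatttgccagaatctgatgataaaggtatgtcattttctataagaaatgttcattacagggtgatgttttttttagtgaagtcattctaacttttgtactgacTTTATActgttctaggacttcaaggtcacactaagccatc
Sprr1b (chr3:92438780-92439029, minus strand): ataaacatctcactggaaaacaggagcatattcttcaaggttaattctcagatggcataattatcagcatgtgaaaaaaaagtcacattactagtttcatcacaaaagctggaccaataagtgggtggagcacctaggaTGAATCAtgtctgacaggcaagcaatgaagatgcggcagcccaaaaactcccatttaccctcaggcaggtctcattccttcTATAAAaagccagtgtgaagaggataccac
Serpinb12 (chr1:106934199-106934448, plus strand): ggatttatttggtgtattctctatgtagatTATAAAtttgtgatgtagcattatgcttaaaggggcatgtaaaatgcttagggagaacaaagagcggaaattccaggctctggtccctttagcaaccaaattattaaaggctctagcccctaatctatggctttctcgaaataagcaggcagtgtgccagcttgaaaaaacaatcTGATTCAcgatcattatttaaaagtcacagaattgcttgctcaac
The runs of Serpinb3b and Serpinb3c were identical at 95.4% of 240 positions when shifted by 10 bases, and Serpinb3a was identical to Serpinb3b at 92.5% of 226 positions. Serpinb3d was the exception, at most 35.8% identical to any of the other 3 over shifts of up to 50 bases. TATAAA lay 65, 41 and 31 bases before the annotated starts of Serpinb3a, Serpinb3b and Serpinb3c, and on the other strand 40 bases before that of Serpinb3d. Among the matched raised genes, 14 of 26 held TATAAA on either strand (53.8%, against 12.97% of 27025 promoters of the same length) and 4 of 26 held TGANTCA (15.4% against 6.87%), namely Sprr1b, Serpinb12, Clec2e and Hal. The 14 count the near-identical runs of Serpinb3a, Serpinb3b and Serpinb3c separately. Of the 3 matched lowered genes, 2 held TATAAA (66.7%) and 0 held TGANTCA, so TATAAA was not particular to the raised genes. AACNGGTT, a motif of the grainyhead-like factors, was found in 1 of 26 (3.85% against 1.71%), and the ETS core GGAAGT in 8 of 26 (30.8% against 19.99%). A match describes the sequence and does not show that a factor binds there.

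The small proline-rich proteins, which are cross-linked into the cornified envelope, are clustered on chromosome 3. Of 15 listed, 10 were tested and 3 were called, all higher (0.238% of all genes tested were called higher). Sprr2a2 was at 0.208 and 0.270 CPM at 0w and at 1641 and 3643 CPM at 1w pw2 (log2 fold change 13.39 ± 1.59 SE, edgeR adjusted p = 0.0146). Sprr1b had 0 and 0.432 CPM at 0w, all of it in 1 cell, and 399 and 316 CPM at 1w pw2 (10.66 ± 1.32 SE, adjusted p = 0.0182). On 1w pw2 replicate 1 a single cell held 74.3% of its counts, the highest such share among the 33 raised genes on that plate. Sprr2a3 had 1 count on each 0w plate and 37.8 and 138 CPM at 1w pw2, a ratio of 1782 with a counting interval of 493 to 14718, or of 714 by replicate 1 alone (adjusted p = 0.0309). Sprr2a1, Sprr2a2 and Sprr2a3 are near-copies. The share of 75-base windows found in another gene was 94.7% for Sprr2a2 and 47.5% for Sprr2a3, so the split of reads between them is uncertain. Summed over the 11 members in the table, the family stood at 216 and 59.1 CPM at 0w and 3115 and 5453 CPM at 1w pw2.

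Among 13 alarmins and antimicrobial proteins tested, 2 were called, 2610528A11Rik and Wfdc17, both higher. 2610528A11Rik, also named Gpr15lg, encodes a ligand of the receptor GPR15 that epithelia secrete. It had 0 counts at 0w and 82.1 and 68.5 CPM at 1w pw2, at least 937-fold higher, with the lowest adjusted p of all genes tested (edgeR adjusted p = 0.00298). Wfdc17 and Wfdc18 are adjacent genes on chromosome 11 for small secreted proteins with a WAP domain. Wfdc17 (chr11:83703991-83706268) had 0 counts at 0w and 51.0 and 1472 CPM at 1w pw2, at least 10751-fold higher, or 642-fold by replicate 1 alone (adjusted p = 0.0448), and on replicate 2 a pair of cells held 50.4% and 49.0% of its counts. Those cells held 117238 and 25189 counts of Krt10, 0 of Krt14 and 0 of Ptprc and Cd74. Wfdc18 had 0 counts at 0w and 78.5 and 38.4 CPM at 1w pw2, at least 704-fold higher (adjusted p = 0.0227). Il1f9, an epidermal cytokine of the interleukin-1 family, stood at 1.82 and 0.647 CPM at 0w and 29.8 and 78.7 CPM at 1w pw2 (log2 fold change 5.45 ± 0.77 SE, adjusted p = 0.0273). It was the single called member of 12 tested in that family. The alarmin genes S100a8 and S100a9 had both 1w pw2 plates above both 0w plates without passing the test. S100a8 measured 0.519 and 2.86 CPM against 640 and 1088 CPM (adjusted p = 0.187), and S100a9 had 0 counts at 0w against 20.1 and 103 CPM (adjusted p = 0.154). Over the 13 tested, 8 had both 1w pw2 plates above both 0w plates (21.5% of all genes tested). Slpi, Defb1 and Defb6 had negative fold changes and overlapped, Defb6 at 1434 and 8126 CPM against 4249 and 1875 CPM. The summed list overlapped too, at 1576 and 8728 CPM against 5281 and 4809 CPM.

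Suprabasal genes of the interscale epidermis were the next group. The list of 9 interscale markers came from an earlier publication and was displayed by the study on these cells, so its count is not independent evidence of a direction. All 9 were tested and 3 were called higher, namely Krt2, Calm4 and Serpinb12. Calm4, a calcium-binding protein of differentiating keratinocytes, was even between plates, at 218 and 210 CPM at 0w and 1952 and 2410 CPM at 1w pw2 (log2 fold change 3.35 ± 0.47 SE, edgeR adjusted p = 0.0273). Krt2, a keratin of the suprabasal layers, was uneven, at 2.08 and 9.39 CPM at 0w and 868 and 10470 CPM at 1w pw2 (9.95 ± 1.48 SE, adjusted p = 0.0309), and a single cell held 63.1% and 69.95% of its counts on the 1w pw2 plates. Krt10, the main suprabasal keratin, measured 831 and 1703 CPM at 0w and 5884 and 18932 CPM at 1w pw2 (adjusted p = 0.0805), and Krt1 measured 371 and 59.7 CPM against 4401 and 2977 CPM (adjusted p = 0.144). Over 21 spinous layer genes tested, 2 were called, both higher, and both 1w pw2 plates lay above both 0w plates for 20, against 21.5% of all genes tested. No granular layer gene of 21 tested was called, 10 had an unadjusted p under 0.05 with a higher level (6.82% of all genes tested), and for 12 both 1w pw2 plates lay above both 0w plates (21.5%). The median log2 fold change was 2.95 for granular and 1.93 for spinous genes. Casp14, a protease of terminal differentiation, measured 2.65 and 2.37 CPM at 0w and 16.4 and 24.9 CPM at 1w pw2 (adjusted p = 0.120), whereas filaggrin (Flg), a late marker, overlapped, at 25.1 and 1.08 CPM at 0w and 444 and 1.08 CPM at 1w pw2. Among the 8 scale genes tested none was called. Krt84 had 0 counts at 0w and 10.8 and 449 CPM at 1w pw2 (adjusted p = 0.0962).

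The remaining raised genes had mixed roles. Sfn, which encodes the stratifin that marks stratified epithelia, was detected in most cells of both groups and rose from 59.0 and 62.4 CPM to 372 and 500 CPM (log2 fold change 2.84 ± 0.46 SE, edgeR adjusted p = 0.0435). Dsc2, a desmosomal cadherin, went from 2.91 and 6.42 CPM to 61 and 83.4 CPM (adjusted p = 0.0461). Mt4, a metallothionein of stratified epithelia, went from 18.5 and 5.34 CPM to 425 and 315 CPM (adjusted p = 0.0433). Skint2 and Skint6 belong to a family of immunoglobulin-like membrane proteins of skin and thymus epithelium. Skint2 rose from 16.6 and 15.9 CPM to 115 and 171 CPM (adjusted p = 0.0435), and Skint6 from 0.415 and 0.971 CPM to 19.3 and 19.0 CPM (adjusted p = 0.0318). Clec2e, a C-type lectin-like surface protein, had 0 counts at 0w and 6.02 and 8.58 CPM at 1w pw2, at least 94.1-fold higher (adjusted p = 0.0293). Hal, which converts histidine to urocanate, rose from 0.156 and 0.539 CPM to 27.4 and 30.3 CPM (adjusted p = 0.0376). Tdh, threonine dehydrogenase, rose from 0.208 and 0 CPM to 13.1 and 60.3 CPM (adjusted p = 0.0309), and Nat8l, the N-acetylaspartate synthase, from 0.104 and 0.270 CPM to 17.1 and 15.8 CPM (adjusted p = 0.0273). Ttll7, a tubulin polyglutamylase, rose from 3.43 and 0.701 CPM to 113 and 111 CPM (adjusted p = 0.0273), and Rbp2, which encodes a retinol-binding protein, from 0.779 and 0.539 CPM to 13.9 and 44.3 CPM (adjusted p = 0.0309). Tmem117 had 0 counts at 0w and 10.6 and 12.1 CPM at 1w pw2, at least 145-fold higher (adjusted p = 0.0227). Gdpd2, a glycerophosphodiester phosphodiesterase, had 1 count over both 0w plates and 7.07 and 6.53 CPM at 1w pw2, a ratio of 256 with a counting interval of 45.4 to 10144 (adjusted p = 0.0354).

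The 4 lowered genes encode 3 secreted proteins and a receptor. Abi3bp (chr16:56477878-56690135), a matrix protein listed among the bulge genes, stood at 196 and 153 CPM at 0w and 1.96 and 5.83 CPM at 1w pw2, and fell by 5.48 on the log2 scale (SE 0.91, edgeR adjusted p = 0.0461). Ackr4, an atypical receptor that removes chemokines, listed among the upper follicle genes, was even between plates, at 36.7 and 33.8 CPM against 2.66 and 2.91 CPM, and fell by 3.66 on the log2 scale (SE 0.58, adjusted p = 0.0415). Wif1, a secreted inhibitor of Wnt ligands, had 5.45 and 4.48 CPM at 0w and 0 counts at 1w pw2, at least 54.4-fold lower (adjusted p = 0.0376). Prelp, a small leucine-rich proteoglycan, had 7.63 and 9.06 CPM at 0w and 0 counts at 1w pw2, at least 91.2-fold lower (adjusted p = 0.0450). The lower calls held under 6 of the 19 alternatives for Wif1, 7 each for Abi3bp and Prelp and 8 for Ackr4. No gene was called lower under 7 alternatives, namely with only the plates compared, with every cell scaled to the same total, with the stricter filter on cells, and without 0w replicate 1, 0w replicate 2, 1w pw1 replicate 1 or 1w pw2 replicate 2. In a sum over a plate, fewer cells of a type and less RNA per cell cannot be told apart, so the share of cells with a count is given for both groups. Abi3bp was detected in 48.9% and 48.4% of cells at 0w and in 10.5% and 8.79% at 1w pw2. Ackr4 was detected in 47.7% and 34.1% against 4.65% and 7.69%, and Prelp in 12.5% and 14.3% against 0 of 86 and 0 of 91 cells. A count of 0 there allows up to 3.49% and 3.30% of cells with a count, taking 3 cells as the floor, and sets no limit on cells that express the gene below detection. Wif1 was seen in only 4 cells of each 0w plate. Markers of fibroblasts, which also make matrix proteins, were measured beside these genes. Of 6 listed 4 were tested and none was called, and the list summed to 25.4 and 20.5 CPM at 0w and 3.71 and 15.9 CPM at 1w pw2. Dcn, a matrix proteoglycan of fibroblasts, was detected in 7 and 11 cells at 0w and 0 and 3 cells at 1w pw2, and Pdgfra, a fibroblast receptor, was at 0 counts on both 0w plates. Of the 24 cells with Prelp at 0w, 24 also had Krt14 and 0 had Dcn. Of the 87 cells with Abi3bp at 0w, 85 had Krt14 and 17 had Dcn, and the part of the latter cells in the fall of Abi3bp was not tested.

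**Figure D3:**
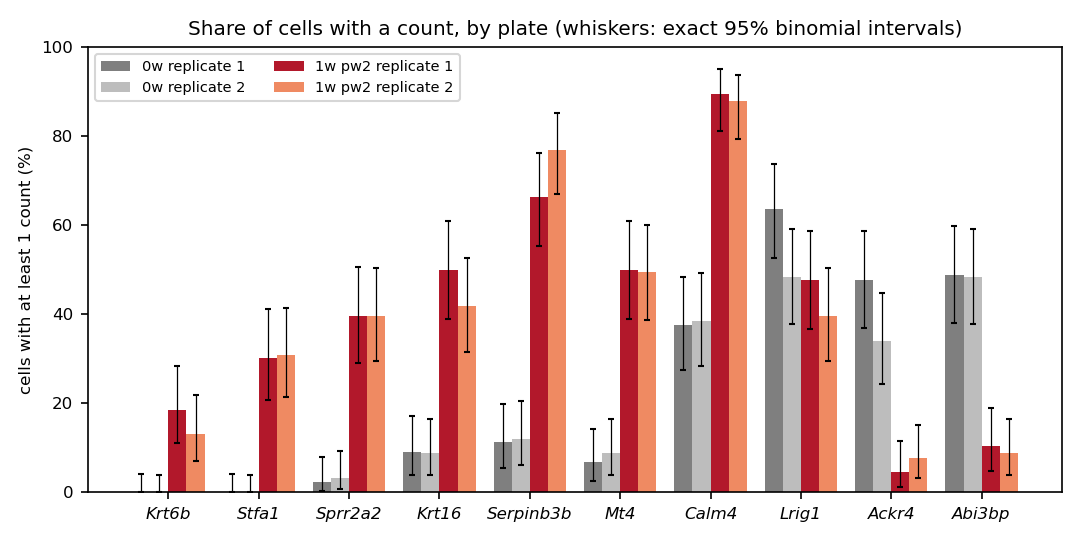
Percentage of cells with at least 1 count of 10 genes on each 0w and 1w pw2 plate, with exact 95% binomial intervals as whiskers, which cover counting error only. Krt6b and Stfa1 were not detected at 0w, whereas Calm4 went from 37.5% and 38.5% of cells to 89.5% and 87.9%, and Lrig1 went from 63.6% and 48.4% to 47.7% and 39.6%.

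The raised genes were found in many cells of the 1w pw2 plates. Since these 33 genes were chosen on the same cells, the shares are a description without a test. At 0w the median cell of each plate had a count of 2 of the 33 genes and no cell had more than 7. At 1w pw2 the median cell had 9.5 on replicate 1 and 9 on replicate 2, and 43 of 86 and 44 of 91 cells had 10 or more. After each cell was thinned to 20000 counts, which left out 2 and 10 cells at 0w and 3 and 8 at 1w pw2, the medians were 1 and 1 against 7 and 7. The 33 genes took up 0.0452% and 0.0384% of plate counts at 0w and 0.954% and 2.56% at 1w pw2. Detection of single genes ranged widely, from 4.65% to 98.8% of cells on replicate 1 of 1w pw2 and from 7.69% to 94.5% on replicate 2. It exceeded 20% of cells for 23 and 21 of the 33 genes. Krt6b was seen in 18.6% and 13.2% of cells at 1w pw2 and Stfa1 in 30.2% and 30.8%, whereas Serpinb3b was seen in 66.3% and 76.9%, against 11.4% and 12.1% at 0w. Of the 28 cells with Krt6b, 23 also had Krt16, 21 had Stfa1 and 11 had Krt2. The level of a raised gene on a plate often came mostly from few cells. The cell with most counts held a median of 28.6% and 34.1% of a gene's counts on the 1w pw2 plates, and over 50% for 8 and 7 of the 33 genes.

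**Figure D4:**
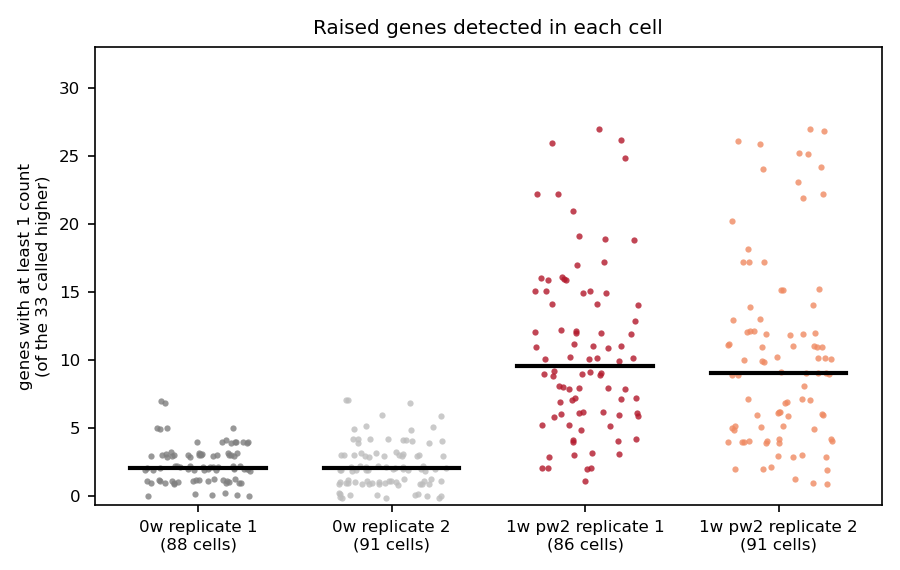
Number of the 33 raised genes with at least 1 count in each cell of the 0w and 1w pw2 plates, with a point per cell and a black line at the plate median. The medians were 2 and 2 at 0w and 9.5 and 9 at 1w pw2, and no 0w cell exceeded 7.

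The effect of single cells on the calls was measured by dropping each gene's highest cell on each plate, an alternative added after the data were seen. Of 12469 genes then tested, 115 were called (0.922%), 85 higher (0.682%) and 30 lower (0.241%), and 36 of the 37 genes were among them, Wif1 being the exception. Listed genes that were called there and not before included Krt10, Sprr2a1, S100a9, Krt84, Il1f8, Krt7, Lypd3, Casp14, Ptgs1, Eno1 and Egln3, all higher, and Lgr5, Aspn and Itga2, all lower. For a gene whose 0w counts lie in no more than 1 cell of each plate the step removes all 0w counts, so its fold change rises by construction. Among the 36 genes kept this was so for Sprr1b (log2 fold change 10.66 to 14.19), Skint6 (4.78 to 10.55), Tdh (8.35 to 12.02), Sprr2a3, Serpinb3c, Cstdc6 and Gdpd2. That these were kept therefore does not show that they are free of the effect of single cells. Il1f8 was such a gene, and its log2 fold change went from 5.75 to 10.6. Acta2, a smooth muscle actin listed as a pericyte marker, was also called higher there (edgeR adjusted p = 0.0132). With all cells it measured 0.0519 and 1.51 CPM at 0w and 10.4 and 41.2 CPM at 1w pw2 (adjusted p = 0.163), in 1 and 3 cells against 14 and 14. Pecam1, the other endothelial and pericyte marker tested, overlapped between groups, at 473 and 873 CPM against 308 and 911 CPM (adjusted p = 0.957). Pecam1 had a count in 100% and 100% of cells at 0w and 100% and 98.9% at 1w pw2, so it did not set any cell type apart on these plates. Whether other cell types carry these transcripts was not tested.

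Of 18 bulge genes tested 1 was called, Abi3bp, and 9 had an unadjusted p under 0.05 with a lower level, against 5.73% of all genes tested. For 11 of them both 1w pw2 plates lay below both 0w plates, against 19.4% of all genes tested. Lgr5, a receptor for R-spondins that marks stem cells of the lower follicle, measured 81.8 and 66.9 CPM at 0w and 6.65 and 15.3 CPM at 1w pw2 (edgeR adjusted p = 0.126), and was detected in 23.9% and 22% of cells against 8.14% and 6.59%. Aspn, a small matrix proteoglycan, measured 196 and 54.0 CPM against 1.26 and 0.0540 CPM (adjusted p = 0.0803). Cd34, a surface marker of the bulge, measured 26.8 and 7.98 CPM against 1.61 and 2 CPM (adjusted p = 0.189). Over 12 matricellular genes of the follicle, which hold 7 members of other lists, 1 was called, again Abi3bp. The median log2 fold change of bulge genes was -1.29 and that of matricellular genes -2.35, beside 0.054 for all genes tested.

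Upper follicle genes did not move one way. Of 17 junctional zone and upper follicle genes tested, 1 was called, Ackr4, which was lower. Both 1w pw2 plates lay above both 0w plates for 10 of them and below for 5, against 21.5% and 19.4% of all genes tested. Ptn, a secreted growth factor, measured 148 and 195 CPM at 0w and 20.4 and 36.0 CPM at 1w pw2 (edgeR adjusted p = 0.152). Krt79, a keratin of the infundibulum and sebaceous duct, measured 1114 and 1659 CPM against 4199 and 4378 CPM (adjusted p = 0.191), and Teddm3 measured 34.5 and 44.8 CPM against 125 and 161 CPM (adjusted p = 0.163).

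No sebaceous gland gene of 20 tested was called, 8 had an unadjusted p under 0.05 with a lower level (5.73% of all genes tested), and for 7 both 1w pw2 plates lay below both 0w plates (19.4%). The median log2 fold change was -1.48. The 0w plates differed among themselves. Scd1, a fatty acid desaturase, measured 485 and 4632 CPM at 0w and 487 and 260 CPM at 1w pw2, so the groups overlapped. Pparg, a nuclear receptor of sebocyte differentiation, measured 16.9 and 71.9 CPM at 0w and 1.19 and 0.216 CPM at 1w pw2 (edgeR adjusted p = 0.159). Summed over 20 genes, the gland list stood at 1262 and 8689 CPM at 0w and 1187 and 900 CPM at 1w pw2.

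**Figure D5:**
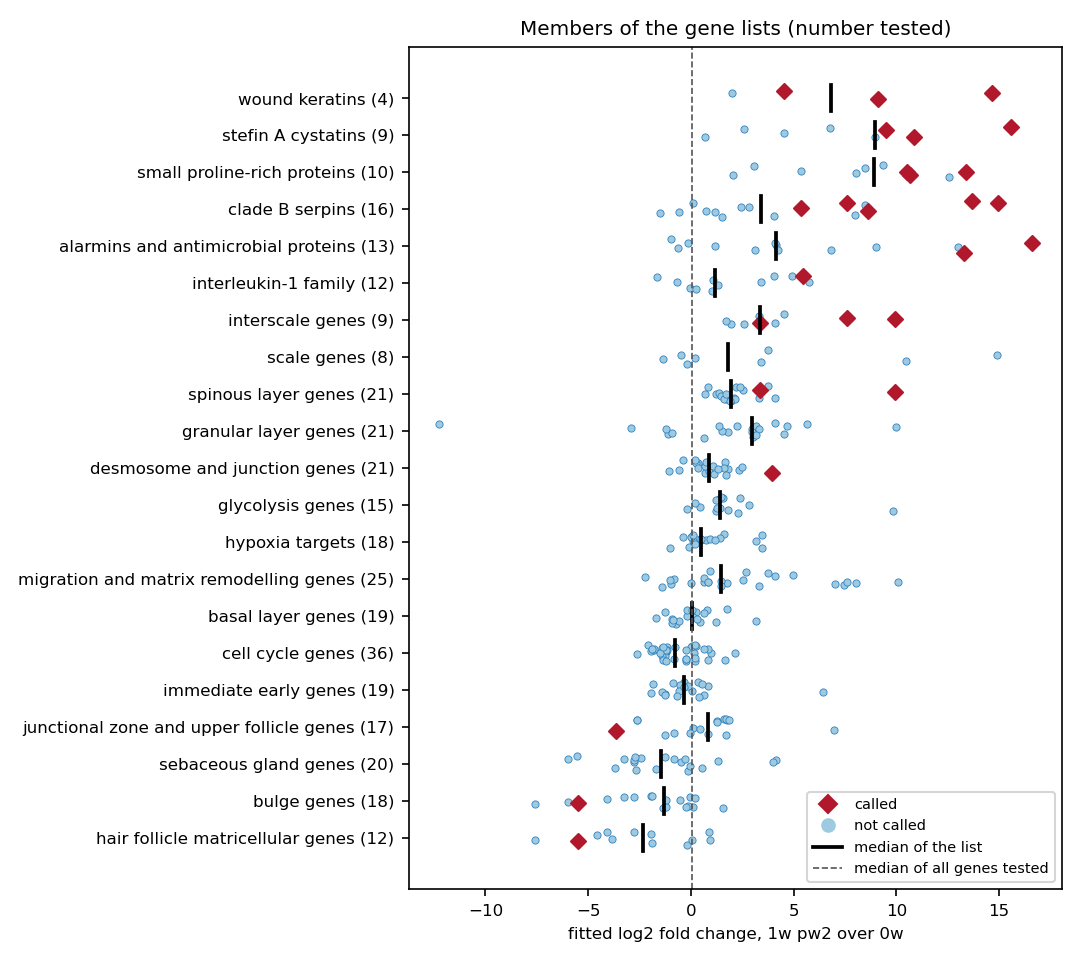
Fitted log2 fold change of 1w pw2 over 0w for each tested member of 21 gene lists, with called genes as diamonds, list medians as black bars and the median of all genes tested as a dashed line. Called genes stand on the right for the lists of keratins, protease inhibitors and cornified envelope proteins and on the left for bulge, matricellular and upper follicle lists.

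Basal and proliferation genes gave no call. Of 19 basal layer genes none was called, and the median log2 fold change was 0.05. Krt14, the basal keratin, measured 903 and 999 CPM at 0w and 3168 and 3328 CPM at 1w pw2 (edgeR adjusted p = 0.159), whereas its partner Krt5 measured 425 and 238 CPM against 503 and 279 CPM (adjusted p = 0.896). Of 36 cell cycle genes none was called, 14 had both 1w pw2 plates below both 0w plates and 3 had them above, against 19.4% and 21.5% of all genes tested. Mki67, a proliferation marker, measured 173 and 158 CPM at 0w and 25.2 and 53.3 CPM at 1w pw2 (adjusted p = 0.272), and the replication helicase subunit Mcm4 measured 63.8 and 69.9 CPM against 12 and 22.7 CPM (adjusted p = 0.199).

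Metabolic and signalling lists held genes with separated plates and no call. Of 15 glycolysis genes tested 12 had both 1w pw2 plates above both 0w plates (21.5% of all genes tested). Eno1, an enolase, measured 62.4 and 36.7 CPM at 0w and 291 and 416 CPM at 1w pw2 (edgeR adjusted p = 0.0710), and Pkm, a pyruvate kinase, measured 92.6 and 58.7 CPM against 310 and 482 CPM (adjusted p = 0.0962). None of 18 hypoxia targets tested was called, and their median log2 fold change was 0.49. Both 1w pw2 plates lay above both 0w plates for 7 of them and below for 1, against 21.5% and 19.4% of all genes tested. Egln3, an oxygen-sensing prolyl hydroxylase and the hypoxia target nearest to the threshold, measured 16.8 and 7.93 CPM against 178 and 95.2 CPM (adjusted p = 0.0780). Of 25 migration and matrix remodelling genes 15 had both 1w pw2 plates above both 0w plates and 4 had them below, against 21.5% and 19.4% of all genes tested. Inhba, a subunit of activin, measured 0.104 and 0.0539 CPM against 2.03 and 31.1 CPM (adjusted p = 0.126), and Itga2, an integrin that binds collagen, measured 66.0 and 47.1 CPM against 8.33 and 15.6 CPM (adjusted p = 0.168). Immediate early genes had no call among 19 tested. Fos measured 486 and 790 CPM at 0w and 145 and 205 CPM at 1w pw2 (adjusted p = 0.168), while Fosl1, another AP-1 subunit, measured 0.104 and 0 CPM against 7.84 and 2.64 CPM (adjusted p = 0.164).

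Immune cell markers were measured on the same plates. Of 10 markers of T cells and Langerhans cells 8 were in the table, 6 were tested and none was called, while 5 had an unadjusted p under 0.05 with a higher level (6.82% of all genes tested) and 4 had both 1w pw2 plates above both 0w plates (21.5%). Their median log2 fold change was 5.66, and their summed level was 3.22 and 3.61 CPM at 0w and 7.98 and 81 CPM at 1w pw2. Ptprc, the common leukocyte antigen, measured 0.104 and 0.216 CPM against 2.73 and 15.8 CPM (edgeR adjusted p = 0.187), and Cd3d, a subunit of the T cell receptor complex, measured 2.70 and 2.43 CPM against 1.05 and 3.94 CPM (adjusted p = 0.993). On 1w pw2 replicate 2 a pair of cells held 74.6% and 25.1% of the Cd74 counts. The first had 210 counts of Ptprc and 0 counts of Krt14, Krt5 and Krt10, and the second had 69 counts of Ptprc together with 3830 of Krt14 and 7563 of Krt10. Without the 5 cells of the experiment that held at least 10 counts of Ptprc or Cd74, 36 genes were called, 35 of them among the 37. Of 14 neutrophil and macrophage markers 4 were tested, with a summed level of 8.46 and 2.43 CPM at 0w and 1.89 and 9.93 CPM at 1w pw2.

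The called genes were also measured 1 week after the first wound (1w pw1) and at 8 weeks, just before the second (8w pw1), and these values share the 0w plates with the values above. Krt6b stood at 5141 and 2464 CPM at 1w pw1, at 0.216 and 0.0652 CPM at 8w pw1 and at 92.7 and 299 CPM at 1w pw2. Krt6b was the single gene called between 1w pw2 and 8w pw1 (1 of 13853 genes, 0.00722%, log2 fold change 10.40 ± 1.03 SE, edgeR adjusted p = 0.0430), where 1100 genes had an unadjusted p below 0.05. Between 1w pw2 and 1w pw1 no gene was called by edgeR (0%, 832 genes with an unadjusted p below 0.05), and over the 37 genes the adjusted p ranged from 0.781 to 0.999. Mt4 stood at 233 and 78.8 CPM at 8w pw1, between its 0w and 1w pw2 levels. Serpinb3b stood at 182 and 409 CPM at 8w pw1, above both 0w plates and overlapping its 336 and 988 CPM at 1w pw2. Gdpd2 stood at 16.6 and 12.3 CPM at 8w pw1, above both 1w pw2 plates, which held 7.07 and 6.53 CPM (edgeR adjusted p = 0.778 for the difference). No other raised gene had both 8w pw1 plates above both 1w pw2 plates. Sprr1b stood at 1.3 and 0.13 CPM at 8w pw1, overlapping its 0 and 0.432 CPM at 0w. Every other raised gene had both 8w pw1 plates above both 0w plates, which held for 17.8% of all genes tested. The raised genes had been chosen on the 0w and 1w pw2 plates, so their standing against these plates is a description without a test. Ackr4 stood at 32.3 and 45.8 CPM at 8w pw1 against 2.68 and 2.93 CPM at 1w pw1.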

How the data were processed

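Single tdTomato-positive cells from mouse tail skin were sequenced by a modified Smart-seq2 protocol with 25 PCR cycles and single-end 75 bp reads, without molecular identifiers. Per the labels, reads were quantified with Salmon 0.13.1 on mm10/GRCm38, and the authors deposited its estimated counts (expected counts, 15652 genes by 696 cells), already filtered, though 9 genes were in fewer than 5 cells. Here the estimated counts were summed over the cells of each plate, rounded to whole numbers, normalised by TMM and fitted with edgeR 4.0.16 in R 4.3.3 (quasi-likelihood test, filterByExpr, all 8 plates, time point as the only term, 4 residual degrees of freedom, biological coefficient of variation 0.61). The steps were tested on simulated data. CPM values use the TMM-scaled plate totals. Amplification bias and gene length were not corrected, so levels of different genes are not compared, and no doublet caller was run.

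A 2 against 2 exact permutation test cannot go below p = 0.333, so single values were given without one. The 32 gene lists (468 genes, 403 tested) and the comparison were chosen with earlier results of these data known. Named genes were the called genes (predicted models and pseudogenes left out, of which there were 0), Lrig1, and for each list its called members and up to 4 more with the lowest p. Other members were named for background after their values were seen. Alternatives covered scaling, filters, DESeq2 1.42.0, the weight of single cells and leaving out plates. Promoter sequences came from RefSeq (GRCm38.p6), and gene positions and transcripts from GENCODE M21. Cstdc6 was not matched there.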

Additional observations from a re-analysis of the deposited data

How the results depend on the processing

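The 37 calls by edgeR were near-equal in number under relative log expression scaling (36), no filter on low counts (41), cells thinned to at most 100000 counts (38, 36 higher and 2 lower, 29 of them among the 37), removal of mitochondrial genes (36) and removal of cells with at least 10 counts of Ptprc or Cd74 (36), the last 2 chosen after seeing the data, and kept their direction under each of the 19 alternatives. DESeq2 called 693 genes, 364 higher and 329 lower, the 37 among them. With only the plates compared in the fit 12 genes were called, 10 of them among the 37. Keeping cells with 2000 or more genes and no more than 25% mitochondrial reads gave 11 calls, 10 of them among the 37, from 50 and 21 cells at 0w and 67 and 67 at 1w pw2. With every cell scaled to the same total there were 25 calls, all higher, against 33 higher and 4 lower, 22 of them shared. Without each gene's highest cell on each plate 115 were called. Leaving out single plates gave 1 to 36 calls, lowest without 0w replicate 2. The cause of these differences was not tested, though fits without a plate or with 4 plates hold fewer residual degrees of freedom. Plates shared only a replicate number. A fit with the replicate number as a block called 96 genes, 75 higher and 21 lower, with the 37 among them, and deviations of same-numbered plates correlated at 0.121 to 0.213 over 6 pairs of groups. Over the 152 named genes, 242 fits out of the alternatives lost a call, 130 gained one and none reversed a called direction. With 2 plates a group every call is limited by the plate spread, and genes at 0 on a group are limited by a floor of 3 counts, 0.0794 CPM at 0w and 0.0914 CPM at 1w pw2.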
